A study of Mus musculus with 18 samples.

Results

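Expression of 7 genes of the lymphotoxin and tumour necrosis factor (TNF) family was followed in sorted conventional dendritic cells (cDC) of the mouse spleen. The genes are the ligands Ltb, Tnfsf9 and Tnfsf13b and the receptors Ltbr, Tnfrsf1a, Tnfrsf1b and Tnfrsf11a. They were picked by name from the family, with earlier results of these data known, and are 7 of the 24614 genes that had counts after transcripts were summed per gene. All 7 passed the filter on low counts and were tested among 13381 genes. The libraries come from C57BL/6 mice that were wild type (WT) or ADAM10-deficient (KO). In each genotype, living CD11c+MHCII+ cells were sorted as CD4+ cDC2, as cDC2 lacking CD4 and CD8 (labelled CD4-, here CD4-CD8- cDC2), and as CD8+ cDC1. This gives 6 groups of 3 libraries. The labels give no treatment, age or time, and they do not say how, or in which cells, ADAM10 was removed. Whether the 3 libraries of a group came from separate mice is not stated either, so p-values measure the spread between libraries alone, and that spread may be technical.

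TNF family ligands are mostly trimeric membrane proteins that bind receptors of the TNF receptor family, and several ligands and receptors are shed from the cell surface by ADAM proteases. The lymphotoxin beta protein, made from Ltb, anchors lymphotoxin alpha in the membrane, and the complex binds the lymphotoxin beta receptor (Ltbr), which acts through TRAF proteins, the kinase NIK (Map3k14) and the NF-kB subunits Relb and Nfkb2. In the spleen this axis is known for maintaining cDC2 and the architecture of the follicles and marginal zone. Tnfrsf1a and Tnfrsf1b encode the TNF receptors 1 and 2, Tnfrsf11a encodes RANK, Tnfsf13b encodes the B cell survival factor BAFF, and Tnfsf9 encodes 4-1BBL, the ligand of the costimulatory receptor 4-1BB.

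Library totals ran from 12358884 to 19557469 estimated counts. Values within a gene are given as CPM, estimated counts relative to the library total, scaled between libraries by TMM. Adam10 was lower in KO libraries, with log2 fold changes of -1.18 ± 0.22 (SE) in CD4+ cDC2, -1.25 ± 0.22 in CD4-CD8- cDC2 and -1.15 ± 0.23 in CD8+ cDC1. Its KO libraries lay between 28.7 and 47.4 CPM and its WT libraries between 57.0 and 138 CPM, so a residual signal remained in every KO library. Cd4 averaged 443 and 433 CPM in WT and KO CD4+ cDC2 and at most 6.40 CPM in the other groups, and Cd8a averaged 1060 and 588 CPM in WT and KO CD8+ cDC1 and at most 5.90 CPM elsewhere. The cDC1 gene Xcr1 averaged 746 and 1011 CPM in CD8+ cDC1 but also 39.3 and 92.8 CPM in CD4-CD8- cDC2.

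Ltb lies on chromosome 17 of GRCm38 at 35194439 to 35196320 on the plus strand (GENCODE M21), 3061 bases from Tnf and 6845 bases from Lta. Tnfsf9 lies further along the same chromosome at 57105325 to 57107757 on the plus strand, 38240 bases from Cd70 and 81735 bases from Tnfsf14. Ltbr (chromosome 6, 125306571 to 125313885, minus strand) and Tnfrsf1a (chromosome 6, 125349362 to 125362484, plus strand) are separated by 35477 bases. Tnfrsf1b lies on chromosome 4 at 145213463 to 145246870 on the minus strand, Tnfrsf11a on chromosome 1 at 105780718 to 105847981 on the plus strand, and Tnfsf13b on chromosome 8 at 10006467 to 10039072 on the plus strand. Tnfsf9 overlaps the lincRNA Gm11110 on the opposite strand, Tnfsf13b overlaps Gm44789 on the opposite strand, and Ltb holds the miRNA gene Mir6973a on the same strand. Use of strand in the counting is not stated, so reads of such pairs cannot be told apart.

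The promoter of Ltb is shown because, among the members' windows, that of Ltb alone held the exact NF-kB word searched for. RefSeq promoter windows (250 bases before to 50 bases after a start, build GRCm38.p6) were found for 6 of the 7 genes. The canonical NF-kB word of the kappa light chain enhancer, searched on both strands, occurred in 51 of 32544 promoters (0.157%), and among the members' windows in that of Ltb. A looser pattern that leaves the middle bases of this word open, and so includes it, occurred in 51% of promoters (16582 of 32544). The stretch before the annotated start of Ltb, chr17:35194257-35194438 on the plus strand, is given 5′ to 3′ with the match (on the opposite strand) in capitals.
Ltb: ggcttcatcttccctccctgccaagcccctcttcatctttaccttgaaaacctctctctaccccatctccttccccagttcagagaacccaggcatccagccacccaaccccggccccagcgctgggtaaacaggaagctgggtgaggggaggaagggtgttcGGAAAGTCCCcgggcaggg
The first base of the match lies 19 bases before the annotated start. This is a match of letters and no measurement of binding, and a link to the change of Ltb was not tested.

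Before levels of different genes were set side by side, their transcripts were examined, because TPM, the unit used between genes, is divided by transcript length. For Tnfsf9 all counts belonged to 1 transcript, and for Ltb the transcript Ltb-201 held a median of 98.7% of the counts over 18 libraries. Ltbr-201, of 2107 bases, held a median of 89.2% of the Ltbr counts but 7.98% of its summed TPM. A retained-intron transcript of 215 bases, Ltbr-203, held 4.35% of the counts and 86.6% of the TPM. Tnfrsf1a-201 likewise held 78.5% of counts and 26.0% of TPM. The remaining TPM of Tnfrsf1a lay mostly on Tnfrsf1a-203 (390 bases, 29.6%), Tnfrsf1a-204 (250 bases, 23.7%) and the nonsense-mediated decay transcript Tnfrsf1a-202 (621 bases, 13.1%). Tnfrsf1b-201 held 98.1% of counts and 68.3% of TPM, and the short Tnfrsf1b-202 held 31.7% of TPM. For Tnfrsf11a the main transcript held 93.6% of counts and 70.4% of TPM, and the retained-intron transcript Tnfrsf11a-203 held 27.7% of TPM. Tnfsf13b had the lowest counts and no dominant transcript. The coding Tnfsf13b-201 held a median of 35.7% of its counts, with a range from 0 to 65.6%. Tnfsf13b-205 (nonsense-mediated decay), Tnfsf13b-206 (retained intron) and Tnfsf13b-203 (coding) held medians of 31.6%, 17.6% and 8.83%. These shares differed between WT and KO CD4+ cDC2. Tnfsf13b-205 held 80.7 ± 33.5% (SD) and 11.6 ± 12.1%, Tnfsf13b-206 held 0 and 25.7 ± 5.28%, and Tnfsf13b-201 held 14.2 ± 24.6% and 47.4 ± 10.4%. In a single KO CD8+ library Ltb-201 held 74.4% of the Ltb counts and Ltb-203 held 24.3%. Summed TPM of Ltbr and Tnfrsf1a therefore rest mostly on short transcripts with few reads.

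**Figure D1:**
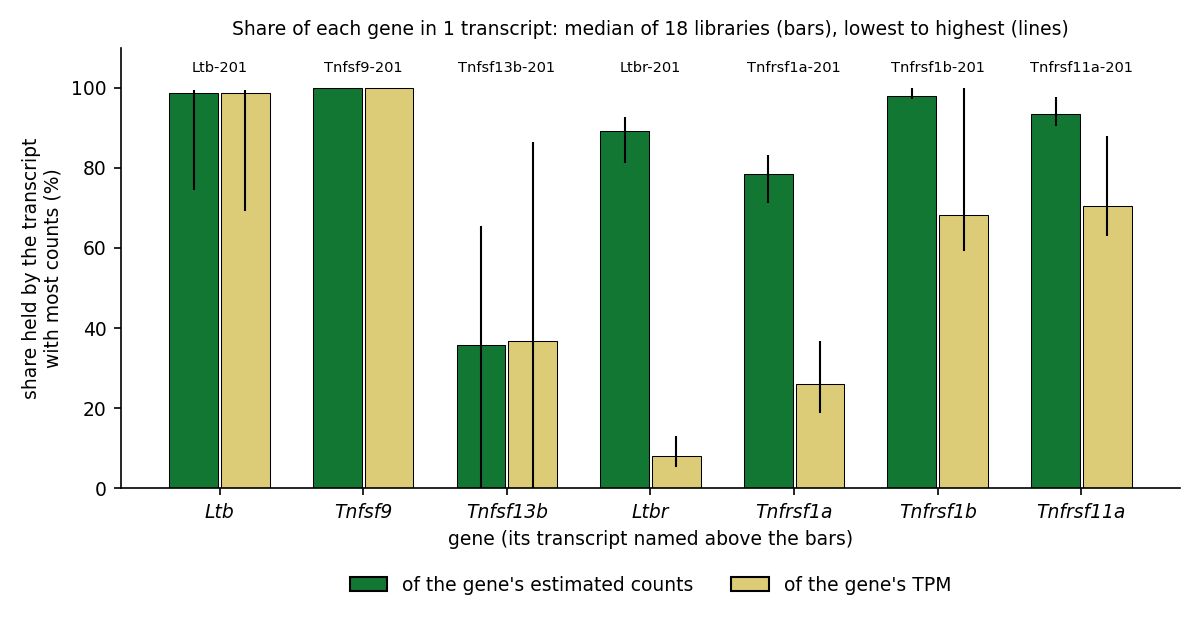
Share (%) of each gene's estimated counts (green) and of its TPM (yellow) held by the transcript with most counts over the 18 libraries; bars are medians over libraries and lines run from the lowest to the highest library. For Ltbr the green bar is at 89.2% and the yellow bar at 7.98%, whereas for Ltb and Tnfsf9 both bars are near the top of the scale.

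On the per-length scale of that leading transcript, Ltb had the highest level of the 7 genes in WT cDC2. It reached 136 ± 11.4 TPM (SD, n = 3) in CD4+ and 106 ± 5.88 TPM in CD4-CD8- cDC2. In WT CD8+ cDC1 its level was 19.8 ± 2.12 TPM, next to Tnfrsf1a at 24.5 ± 4.75 TPM and Tnfrsf1b at 18.3 ± 3.26 TPM, and the libraries of these genes overlapped. In WT CD4+ cDC2, Tnfrsf1b stood at 46.7 ± 5.00 TPM, Tnfrsf1a at 26.7 ± 2.27 TPM, Ltbr at 7.01 ± 0.0982 TPM and Tnfsf9 at 5.28 ± 1.08 TPM. Tnfrsf11a (2.37 ± 0.300 TPM) and Tnfsf13b (0.116 ± 0.202 TPM, with a lowest library at 0) were the lowest there. Summed over all transcripts, the level of Ltbr was 72.7 ± 17.7 TPM in the same group, mostly on its short transcript. On that summed scale Ltb was not the highest in WT CD4-CD8- cDC2, at 108 ± 5.61 TPM against 117 ± 14.6 TPM for Tnfrsf1a, whose libraries overlapped those of Ltb.

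The genes differed in how far their group means were apart. From the highest to the lowest of the 6 groups, summed TPM spanned 17.2-fold for Ltb, 11.7-fold for Tnfsf9, 7.70-fold for Tnfrsf1b and 4.86-fold for Tnfsf13b. The span was 2.33-fold for Tnfrsf11a, 1.94-fold for Tnfrsf1a and 1.46-fold for Ltbr. On this scale the order for Ltb was WT CD4+, WT CD4-CD8-, KO CD4+, KO CD4-CD8-, WT CD8+ and KO CD8+, with no overlap of libraries between neighbours. On the CPM scale the middle of that order was not resolved: KO CD4+ cDC2 overlapped WT CD4+ cDC2 above and WT CD4-CD8- cDC2 below. For Ltbr, Tnfrsf1a and Tnfrsf11a most neighbouring groups overlapped on both scales.

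**Figure D2:**
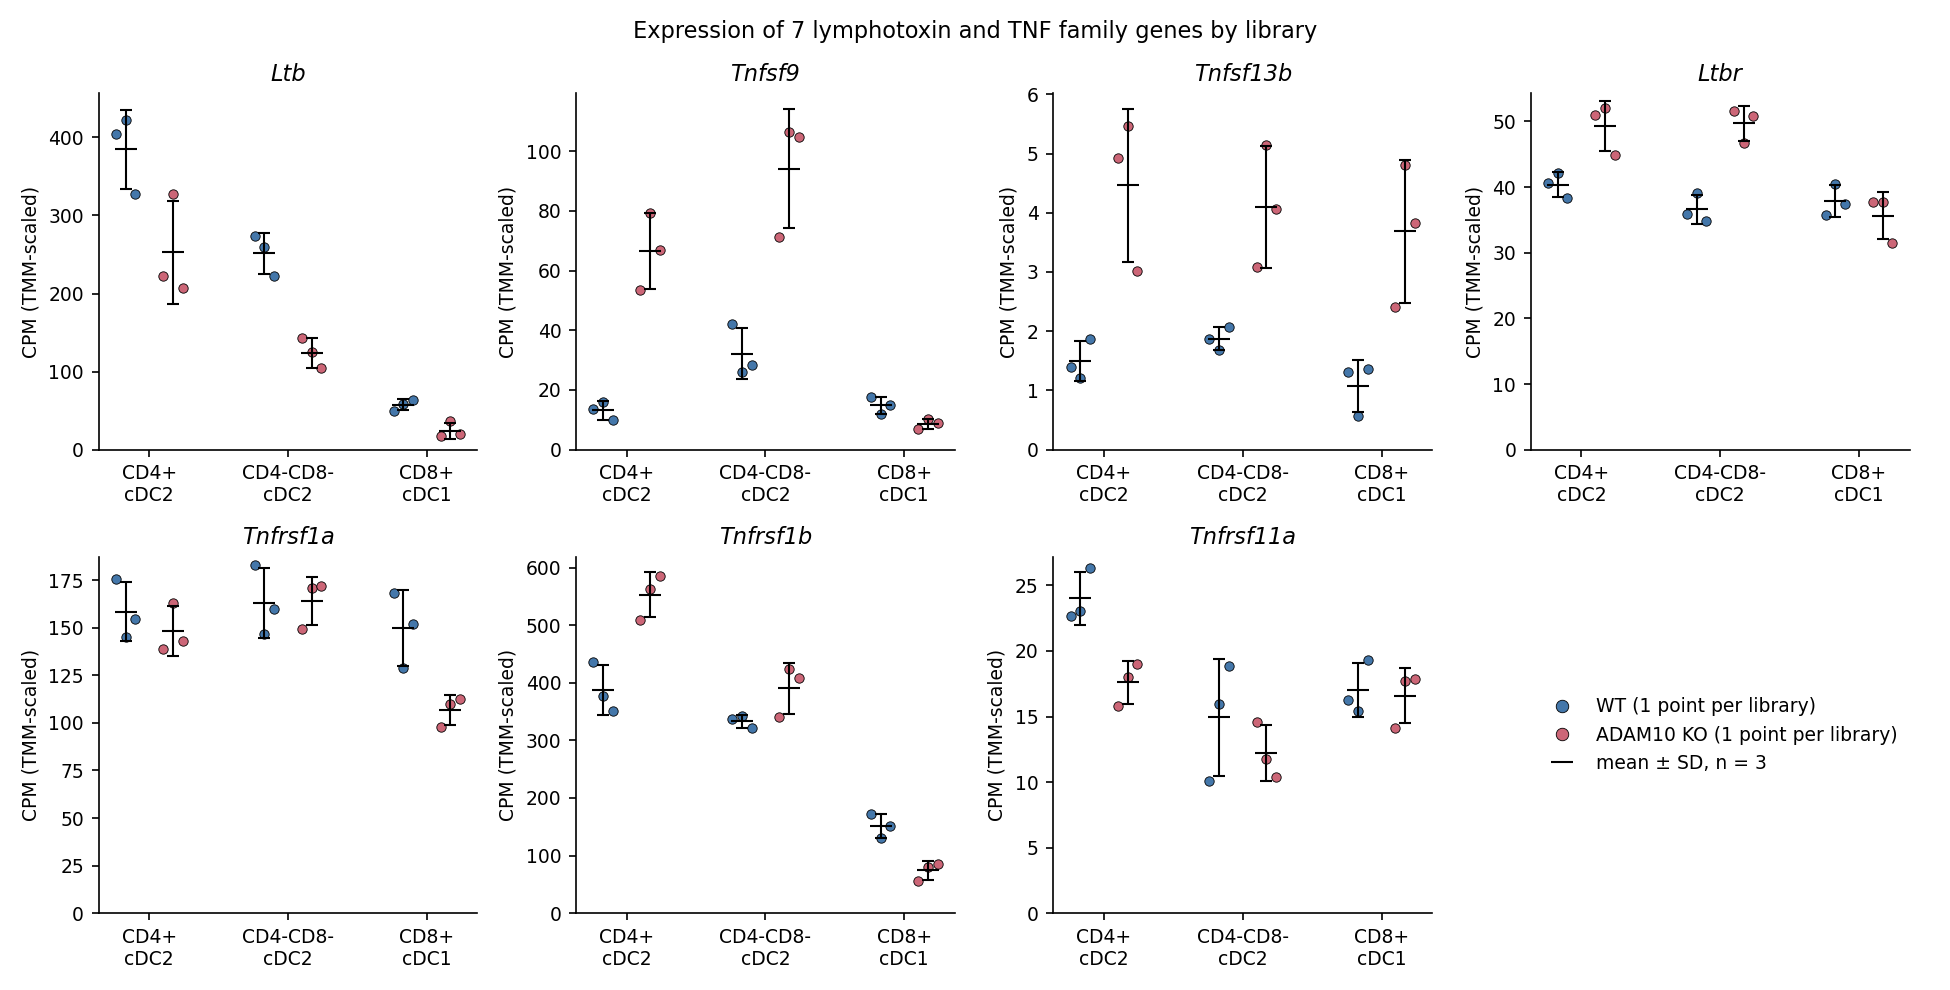
CPM (TMM-scaled) of each gene in every library, by sorted population, with WT in blue and ADAM10 KO in red; black marks are the mean ± SD of 3 libraries and each panel has its own axis from 0. The mean of Ltb is lower in KO than in WT in all 3 populations, while Tnfsf9 is higher in KO in both cDC2 populations and lower in KO CD8+ cDC1.

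ADAM10 loss was compared with WT within each population. Calls rest on edgeR's quasi-likelihood test with a Benjamini-Hochberg adjusted p under 0.05 over all genes, and log2 fold changes are KO minus WT with their standard error. In CD4+ cDC2, 5 of the 7 genes were called, 4 higher and 1 lower, where 35.1% of all genes were called (18.5% higher and 16.6% lower). With any of the 6 libraries of this comparison left out, 3 or 4 genes were called. In CD4-CD8- cDC2, 4 were called, 3 higher and 1 lower, against 25.9% of all genes (14.6% higher and 11.3% lower). In CD8+ cDC1, 5 were called, 1 higher and 4 lower, against 15.7% of all genes (7.01% higher and 8.68% lower). The median log2 fold change of the 7 genes was 0.29, 0.23 and -0.49 in these populations, beside 0.02, 0.02 and 0.00 over all genes tested. In RNA of bulk sorted cells, fewer cells of a type and less RNA per cell cannot be told apart.

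Ltb, the membrane anchor of lymphotoxin, was the only member that fell in all 3 populations. In CD4+ cDC2 the WT libraries held 405, 422 and 327 CPM and the KO libraries 223, 328 and 207 CPM. The second KO library lay just above the third WT library, so the groups overlapped. The log2 fold change was -0.61 ± 0.22 (adjusted p 0.0425), and the call was lost when WT library 1 or 2 or KO library 1 or 3 was left out (log2 fold changes -0.58, -0.54, -0.53 and -0.48).

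In CD4-CD8- cDC2, Ltb fell from 274, 259 and 222 CPM to 142, 125 and 105 CPM. The groups did not overlap, and the log2 fold change was -1.02 ± 0.22 (adjusted p 0.00281). In CD8+ cDC1 it fell from 49.9, 58.5 and 63.8 CPM to 17.4, 36.3 and 19.5 CPM, again without overlap (log2 fold change -1.24 ± 0.24, adjusted p 0.00153). Both calls were kept in 17 of 17 alternatives. No difference in this fall was called between populations: the differences between knockout effects were 0.63 ± 0.32 for CD4+ minus CD8+ (adjusted p 0.187), 0.22 ± 0.32 for CD4-CD8- minus CD8+ (adjusted p 0.741) and 0.41 ± 0.31 for CD4+ minus CD4-CD8- (adjusted p 0.602). Without KO CD8+ library 2, the highest Ltb library of its group, the difference of CD4+ minus CD8+ was 1.03 (adjusted p 0.0102).

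Lymphocytes make Ltb too, and markers of some of them moved with it. Over 12 NK cell markers the summed level was 727 to 1473 CPM in WT against 174 to 325 CPM in KO CD4-CD8- cDC2, and 10 of the 12 fell. All 14 T cell markers fell there, from a sum of 208 to 416 CPM to 20.4 to 71.3 CPM, with Cd3e at 31.1 ± 13.3 and 5.18 ± 4.03 CPM. Their part in the fall of Ltb in CD4-CD8- cDC2 was not tested. In CD8+ cDC1, 6 of 12 NK and 4 of 14 T cell markers fell (sums of 99.0 to 175 against 81.8 to 122 CPM, and 23.1 to 62.6 against 7.67 to 23.2 CPM). In CD4+ cDC2 the NK sum was 33.2 to 35.6 CPM in WT against 55.3 to 81.1 CPM in KO (1 of 12 higher, 0 lower), and the T cell sum was 28.1 to 31.7 against 22.0 to 38.8 CPM (4 of 14 higher, 1 lower). None of these markers was at 0 in a whole group except 1 NK marker in KO CD4+ cDC2. Of 13 B cell markers, 2 rose and 3 fell in CD4+ cDC2, 1 rose and 4 fell in CD4-CD8- cDC2, and 0 rose and 5 fell in CD8+ cDC1. Their sums were 374 to 437 CPM in WT against 295 to 406 CPM in KO CD4+ cDC2. In CD4-CD8- cDC2 these sums were 388 to 443 and 360 to 434 CPM. In CD8+ cDC1 they were 328 to 348 and 340 to 346 CPM. Among all genes tested, 35.1% were called in CD4+ cDC2, 25.9% in CD4-CD8- cDC2 and 15.7% in CD8+ cDC1. The B and T cell marker counts in CD4+ cDC2 are close to that share.

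**Figure D3:**
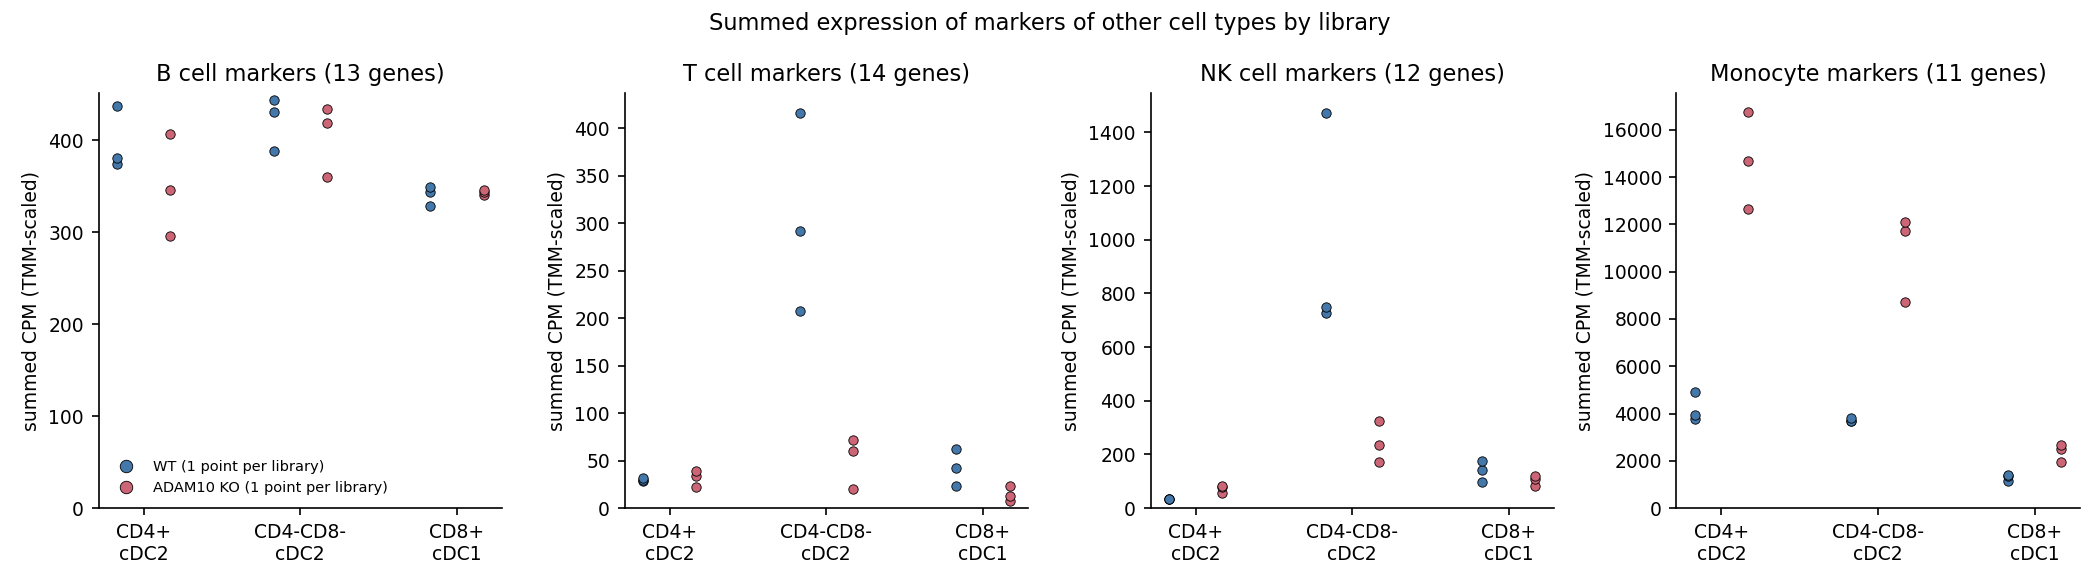
Summed CPM (TMM-scaled) of the marker genes of B cells, T cells, NK cells and monocytes in every library, by sorted population, with WT in blue and ADAM10 KO in red; each panel has its own axis from 0. T and NK cell markers are highest in WT CD4-CD8- cDC2 (208 to 416 and 727 to 1473 CPM). The monocyte sum is higher in KO in every population, although in CD8+ cDC1 only 2 of the 11 markers rose and 3 fell. There 15.7% of all genes were called.

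Both neighbours of Ltb on chromosome 17 were expressed. Lta, which encodes lymphotoxin alpha, was low and fell in CD4+ cDC2 (2.23 ± 0.889 to 0.686 ± 0.245 CPM, log2 fold change -1.71 ± 0.52, adjusted p 0.0163), a call lost without WT library 2 or 3 or KO library 1. Its log2 fold changes were -1.42 ± 0.53 (adjusted p 0.0591) in CD4-CD8- cDC2 and -1.54 ± 0.55 (adjusted p 0.0693) in CD8+ cDC1, which were not called. Tnf, the main ligand of Tnfrsf1a and Tnfrsf1b, rose in CD4-CD8- cDC2 from 17.0 ± 3.11 to 34.0 ± 13.5 CPM (adjusted p 0.00462) and fell in CD8+ cDC1 from 7.57 ± 1.29 to 3.76 ± 0.895 CPM (adjusted p 0.0226). The fall of Tnf in CD8+ cDC1 was lost without WT library 3 or KO library 3, and its rise in CD4-CD8- cDC2 on log2(TPM + 1). In CD4+ cDC2 its log2 fold change was -0.33 ± 0.22 (adjusted p 0.290).

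Tnfsf9, encoding 4-1BBL, rose in cDC2 and fell in cDC1. WT CD4+ cDC2 held 13.8, 16.0 and 9.81 CPM, and KO CD4+ cDC2 held 53.5, 79.1 and 66.8 CPM. Every KO library was above every WT library (log2 fold change 2.32 ± 0.23, adjusted p 7.96e-07). In CD4-CD8- cDC2 the WT libraries held 41.9, 26.2 and 28.3 CPM and the KO libraries 71.3, 106 and 105 CPM, without overlap (log2 fold change 1.55 ± 0.22, adjusted p 7.63e-05). Both rises were called in 17 of 17 alternatives.

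In CD8+ cDC1, Tnfsf9 held 17.8, 12.0 and 14.9 CPM in WT against 6.85, 10.1 and 8.77 CPM in KO. The groups did not overlap, and the log2 fold change was -0.80 ± 0.25 (adjusted p 0.0398). This call was kept in 10 of 17 alternatives and was lost without WT library 1 or 3 or KO library 1 or 3 (log2 fold changes from -0.66 to -0.82). The knockout effect on Tnfsf9 differed by 3.12 ± 0.34 between CD4+ cDC2 and CD8+ cDC1 (adjusted p 6.14e-06) and by 2.35 ± 0.33 between CD4-CD8- cDC2 and CD8+ cDC1 (adjusted p 0.000189), and both differences passed in 24 of 24 alternatives. Between the cDC2 populations the difference was 0.78 ± 0.31 (adjusted p 0.229).

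Tnfsf13b, encoding BAFF, was the only member that rose in all 3 populations, at low levels. It held 1.39, 1.22 and 1.87 CPM in WT against 4.92, 5.47 and 3.01 CPM in KO CD4+ cDC2. In CD4-CD8- cDC2 the values were 1.87, 1.68 and 2.07 CPM in WT against 3.08, 5.14 and 4.06 CPM in KO, and in CD8+ cDC1 they were 1.31, 0.573 and 1.36 CPM in WT against 2.41, 4.81 and 3.83 CPM in KO. No KO library overlapped a WT library of its population. The log2 fold changes were 1.59 ± 0.33 (adjusted p 0.00130), 1.12 ± 0.33 (adjusted p 0.0200) and 1.76 ± 0.35 (adjusted p 0.00222). The rise in CD4-CD8- cDC2 was kept in 8 of 17 alternatives and was lost without WT library 1 or 2 or KO library 2 (1.09, 1.02 and 0.92), and counts of the leading transcript alone called none of the 3 rises.

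Monocytes and macrophages also make BAFF, and the summed monocyte markers were higher in KO in all populations. The sum of 11 monocyte markers was 3754 to 4899 CPM in WT against 12651 to 16753 CPM in KO CD4+ cDC2, with 7 of 11 higher and 3 lower. It was 3683 to 3800 and 8698 to 12101 CPM in CD4-CD8- cDC2 (5 higher, 3 lower), and 1129 to 1388 and 1965 to 2668 CPM in CD8+ cDC1 (2 higher, 3 lower). Lyz2 alone held 1841 ± 184 and 11750 ± 1651 CPM in WT and KO CD4+ cDC2, and 162 ± 13.1 and 921 ± 97.3 CPM in CD8+ cDC1. Treml4 of the same list averaged 52.7 and 9.62 CPM in WT and KO CD4+ cDC2, and 171 and 219 CPM in CD8+ cDC1. Csf1r averaged 380 and 751 CPM in WT and KO CD4+ cDC2, and 73.6 and 10.7 CPM in CD8+ cDC1. The defining monocyte gene Ly6c2 averaged 32.6 and 52.1 CPM in WT and KO CD4+ cDC2, 77.4 and 140 CPM in CD4-CD8- cDC2, and 90.5 and 67.9 CPM in CD8+ cDC1, where it was lower in KO. The red pulp macrophage factor Spic averaged 13.4 and 5.50 CPM in WT and KO CD4+ cDC2. The median log2 fold change of the 11 monocyte markers was 0.985, 0.244 and -0.363 in the 3 populations. Over 11 red pulp macrophage markers the sum was 599 to 678 CPM in WT against 974 to 1065 CPM in KO CD4+ cDC2 (7 higher, 1 lower), 302 to 386 and 340 to 442 CPM in CD4-CD8- cDC2 (2 higher, 1 lower), and 85.9 to 114 and 53.3 to 87.4 CPM in CD8+ cDC1 (1 higher, 3 lower). Among all genes, 35.1%, 25.9% and 15.7% were called in these 3 populations. The red pulp macrophage counts in CD4-CD8- cDC2 are close to that share. The part of monocytes and macrophages in the rises of Tnfsf13b, and in those of Tnfsf9 in cDC2, was not tested.

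Ltbr, the receptor of membrane lymphotoxin, rose in both cDC2 populations. It held 40.6, 42.1 and 38.4 CPM in WT against 51.0, 52.0 and 44.9 CPM in KO CD4+ cDC2. In CD4-CD8- cDC2 it held 35.9, 39.1 and 34.9 CPM in WT against 51.6, 46.7 and 50.8 CPM in KO. The genotypes did not overlap in either, and the rises were log2 fold changes of 0.29 ± 0.09 (adjusted p 0.0145) and 0.44 ± 0.09 (adjusted p 0.00120). In CD8+ cDC1 the WT libraries (35.7, 40.4 and 37.5 CPM) and the KO libraries (37.7, 37.7 and 31.5 CPM) overlapped, and the log2 fold change was -0.09 ± 0.09 (adjusted p 0.575). The retained-intron transcript Ltbr-202 held 3.65 ± 1.17% (SD) of the Ltbr counts in WT and 11.2 ± 2.96% in KO CD4-CD8- cDC2. Ltbr-201 held 91.2 ± 2.01% and 84.2 ± 2.59% there. In CD4+ cDC2, Ltbr-202 held 5.60 ± 2.24% in WT and 5.97 ± 0.869% in KO.

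These rises in Ltbr depend on the unit. On log2(TPM + 1) of the leading transcript they were 0.06 (adjusted p 0.489) and -0.01 (adjusted p 0.896), where the median of all genes was shifted by -0.07 and -0.16, and the call in CD4+ cDC2 was also lost without WT library 3 or KO library 1 or 2 (0.25, 0.26 and 0.25).

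Tnfrsf1a, the death domain receptor of TNF, was nearly level across WT groups and fell in KO CD8+ cDC1. There the WT libraries held 169, 129 and 152 CPM and the KO libraries 97.7, 110 and 113 CPM, without overlap (log2 fold change -0.49 ± 0.11, adjusted p 0.00650). In CD4+ cDC2 it held 176, 145 and 155 CPM in WT against 139, 163 and 143 CPM in KO (log2 fold change -0.10 ± 0.11, adjusted p 0.554). In CD4-CD8- cDC2 it held 183, 147 and 160 CPM in WT against 150, 171 and 172 CPM in KO (0.01 ± 0.11, adjusted p 0.969). In both cDC2 populations the genotypes overlapped. The fall in CD8+ cDC1 was not called on any of the 4 scales that use the summed TPM or its implied lengths (log2 fold changes from -0.20 to -0.44).

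Tnfrsf1b, encoding TNF receptor 2, moved in opposite directions in CD4+ cDC2 and CD8+ cDC1. It rose in CD4+ cDC2 from 435, 377 and 351 CPM to 510, 563 and 585 CPM (log2 fold change 0.51 ± 0.14, adjusted p 0.00879). It fell in CD8+ cDC1 from 172, 130 and 152 CPM to 55.9, 80.7 and 85.6 CPM (log2 fold change -1.03 ± 0.14, adjusted p 8.95e-05). The genotypes did not overlap in either population. In CD4-CD8- cDC2 they overlapped, at 336, 343 and 321 CPM in WT against 341, 423 and 408 CPM in KO (0.23 ± 0.14, adjusted p 0.262).

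The knockout effect on Tnfrsf1b differed by 1.54 ± 0.20 between CD4+ cDC2 and CD8+ cDC1 (adjusted p 3.44e-05) and by 1.26 ± 0.20 between CD4-CD8- cDC2 and CD8+ cDC1 (adjusted p 0.000491). The fall in CD8+ cDC1 was called in 17 of 17 alternatives. The rise in CD4+ cDC2 was called in 12 of 17, and on log2(TPM + 1) it was 0.15 (adjusted p 0.737).

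Tnfrsf11a, encoding RANK, was not called for genotype in any population with all libraries in the fit. Its CD4+ cDC2 libraries held 22.7, 23.0 and 26.4 CPM in WT against 15.8, 18.0 and 19.0 CPM in KO. Though they did not overlap, the log2 fold change of -0.45 ± 0.18 missed the threshold (adjusted p 0.0677), and it passed with only the groups compared in the fit (-0.46, adjusted p 0.0154). It was -0.28 ± 0.19 (adjusted p 0.310) in CD4-CD8- cDC2 and -0.04 ± 0.19 (adjusted p 0.932) in CD8+ cDC1, where the libraries of the genotypes overlapped. Without WT CD4-CD8- library 1 the value in CD4-CD8- cDC2 was -0.52 (adjusted p 0.0277). Group means in CD4-CD8- cDC2 and CD8+ cDC1 lay between 12.3 and 17.0 CPM.

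**Figure D4:**
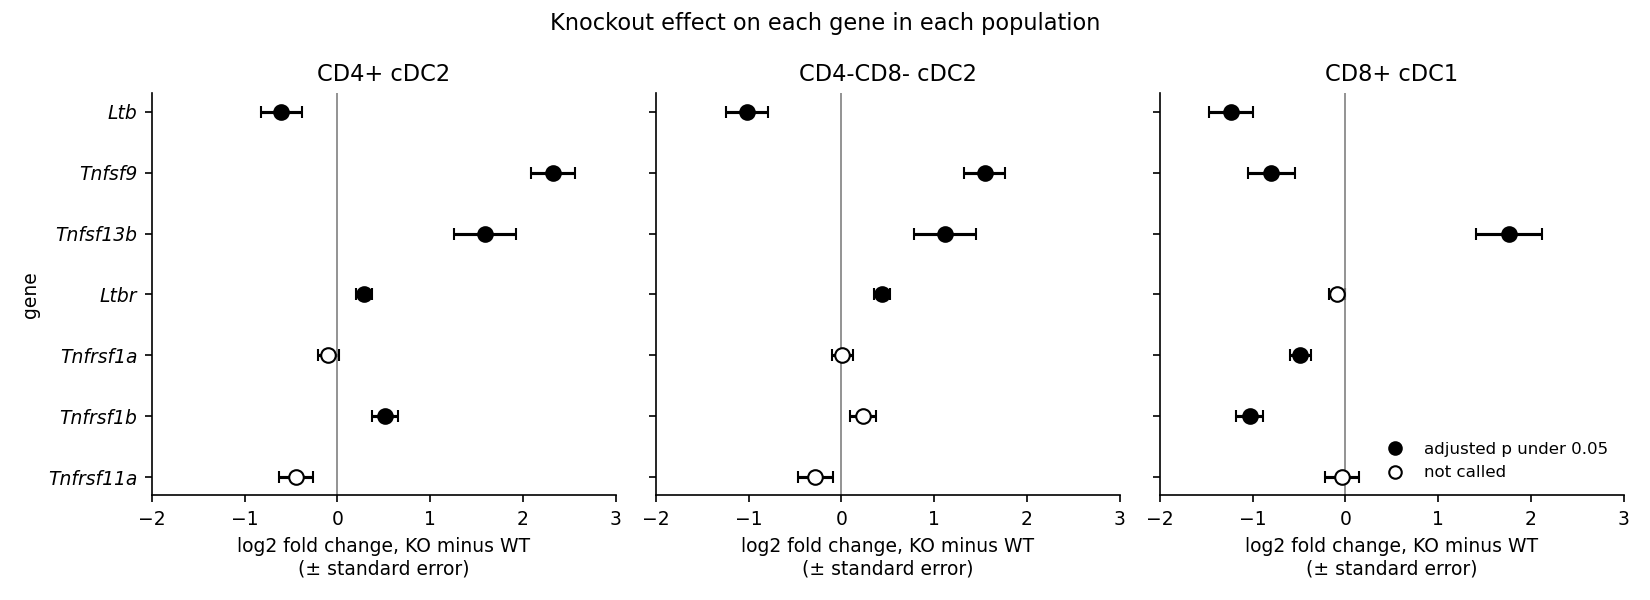
Log2 fold change, KO minus WT, of each gene in the 3 populations with its standard error; filled points passed an adjusted p under 0.05 in edgeR's quasi-likelihood test and open points did not. Tnfsf9 runs from 2.32 in CD4+ cDC2 to -0.80 in CD8+ cDC1 and Tnfrsf1b from 0.51 to -1.03, whereas Ltb lies left of 0 and Tnfsf13b right of 0 in every panel.

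The difference between knockout effects was tested for all 7 genes. For CD4+ cDC2 minus CD8+ cDC1, 3 genes were called, all in the higher direction, where 22.1% of all genes were called (12.6% higher and 9.54% lower). These were Tnfsf9, Tnfrsf1b and Ltbr, the last at 0.38 ± 0.12 (adjusted p 0.0351). For CD4-CD8- cDC2 minus CD8+ cDC1, 4 genes were called, all higher, against 13.2% of all genes (8.24% higher). They were Tnfsf9, Tnfrsf1b, Ltbr at 0.53 ± 0.12 (adjusted p 0.00888) and Tnfrsf1a at 0.50 ± 0.16 (adjusted p 0.0496). The call of Tnfrsf1a was kept in 5 of 24 alternatives and that of Ltbr for CD4+ minus CD8+ in 9 of 24. With 1 library left out, the call of Tnfrsf1a was lost (0.38 to 0.54) except without WT CD4- library 1, KO CD4- library 1 or WT CD8+ library 2. That of Ltbr for CD4+ minus CD8+ was lost without WT CD4+ library 1 or 3, KO CD4+ library 1 or 2, WT CD8+ library 2 or 3 or KO CD8+ library 3 (0.30 to 0.39). For CD4-CD8- minus CD8+, the calls of Tnfrsf1b and Ltbr were kept in 20 and 18 of 24 alternatives. On log2(TPM + 1) they were 0.86 (adjusted p 0.197) and 0.11 (adjusted p 0.892). Between the cDC2 populations edgeR called 0 of 7 genes, against 3.76% of all genes (2.48% higher and 1.28% lower). DESeq2 also called 0. In edgeR's quasi-likelihood test Tnfsf9 was the single member under an unadjusted p of 0.05 (p 0.0250). Fitted with the replicate number as a block within each genotype, Tnfsf9 passed here (0.76, adjusted p 0.0426), and Tnfrsf1a passed for CD4+ minus CD8+ (0.39, adjusted p 0.00477).

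Differences between populations were present in WT cells. For WT CD4+ cDC2 against CD8+ cDC1, 3 of 7 genes were higher and 0 lower, where 45.6% of all genes were called (22.6% higher and 23.0% lower). Ltb was 6.70-fold higher (log2 2.74 ± 0.24, adjusted p 6.86e-08), Tnfrsf1b 2.56-fold (log2 1.36 ± 0.14, adjusted p 6.74e-07) and Tnfrsf11a 1.41-fold (log2 0.50 ± 0.18, adjusted p 0.0358). For WT CD4-CD8- cDC2 against CD8+ cDC1, 3 were higher and 0 lower, against 42.9% of all genes (21.9% higher and 21.0% lower). They were Ltb (log2 2.13 ± 0.23), Tnfrsf1b (log2 1.14 ± 0.14) and Tnfsf9 (log2 1.11 ± 0.23, adjusted p 0.00101). The calls of Ltb, Tnfrsf1b and Tnfsf9 were kept in 18 of 18 alternatives, and that of Tnfrsf11a in 9 of 18, being lost without WT CD4+ library 2 or 3 or WT CD8+ library 1 or 2 (log2 from 0.44 to 0.53). In both comparisons 3 of 7 is close to the share of all genes called in either direction.

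Within WT cDC2, 2 of 7 genes were called, against 16.7% of all genes (7.12% higher and 9.63% lower). Tnfsf9 was lower in CD4+ than in CD4-CD8- cDC2 (log2 -1.28 ± 0.23, adjusted p 0.000987) and Tnfrsf11a was higher (log2 0.68 ± 0.18, adjusted p 0.0165). The call of Tnfrsf11a was lost without WT CD4-CD8- library 1 or WT CD4+ library 3 (0.46 and 0.61). Ltb was 1.53-fold higher in CD4+ cDC2 without overlap of libraries (log2 0.61 ± 0.22) but missed the threshold (adjusted p 0.0706). Fitted with the replicate number as a block within each genotype, which pairs WT libraries, Ltb passed (0.61, adjusted p 0.0200). In the same paired fit Tnfsf13b passed as higher in WT CD4-CD8- cDC2 than in WT CD8+ cDC1 (0.82, adjusted p 0.0448), beside 0.79 ± 0.36 (adjusted p 0.0892) without the block. The NK and T cell markers that are highest in WT CD4-CD8- cDC2 stand beside the Tnfsf9 difference, and their part in it was not tested.

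In KO cells, 5 of 7 genes were higher in CD4+ cDC2 than in CD8+ cDC1, against 50.8% of all genes (25.7% higher and 25.1% lower), and 5 were higher in CD4-CD8- cDC2 than in CD8+ cDC1, against 46.6% (24.3% higher and 22.3% lower). The same 5 genes were called in both: Ltb (log2 3.38 and 2.35), Tnfsf9 (2.96 and 3.46), Tnfrsf1b (2.90 and 2.40), Tnfrsf1a (0.47 and 0.62) and Ltbr (0.47 and 0.48). These comparisons share the KO CD8+ libraries. Neither call of Ltbr, nor that of Tnfrsf1a in CD4+ cDC2, was kept on the 3 scales of summed TPM or with a length offset in edgeR (Ltbr from 0.22 to 0.52, Tnfrsf1a from 0.49 to 0.58). Between KO cDC2 populations, 2 of 7 genes were called, both higher in CD4+ cells, against 7.95% of all genes (3.16% higher and 4.79% lower). They were Ltb (log2 1.03 ± 0.22, adjusted p 0.00842) and Tnfrsf1b (log2 0.50 ± 0.14, adjusted p 0.0355). Without KO CD4+ library 2, neither was called (log2 0.80 for Ltb and 0.49 for Tnfrsf1b). Ltb was also lost without KO CD4- library 3 (0.92), and Tnfrsf1b without any KO library of either population other than KO CD4+ library 1 (from 0.41 to 0.56).

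The rest of the family was counted from lists. Of 15 other TNF family ligands, 13 were tested: 5 rose and 3 fell in CD4+ cDC2, 2 rose and 4 fell in CD4-CD8- cDC2, and 1 rose and 1 fell in CD8+ cDC1, with median log2 fold changes of 0.035, 0.62 and -0.65. Over all genes tested, 35.1%, 25.9% and 15.7% were called in these populations, and the 2 of 13 ligands called in CD8+ cDC1 are close to that background. On log2(TPM + 1), where the median of all genes lay at -0.18 in CD4-CD8- cDC2, 0 of these ligands rose and 6 fell in that population. Tnfsf12, encoding TWEAK, rose in all populations, from 4.16 ± 0.547 to 26.3 ± 3.29 CPM in CD4+ cDC2 (log2 2.66 ± 0.15, adjusted p 1.53e-09), by 1.02 ± 0.14 in CD4-CD8- cDC2 and by 1.92 ± 0.17 in CD8+ cDC1. Its call in CD4-CD8- cDC2 was lost on log2(TPM + 1), log2(TPM + 0.1) and with the length offset. Fasl, a death ligand of cytotoxic lymphocytes, fell in CD4+ cDC2 from 2.14 ± 0.347 to 0.0374 ± 0.0324 CPM (adjusted p 0.000141) and in CD4-CD8- cDC2 from 7.91 ± 4.04 to 0.912 ± 0.190 CPM (adjusted p 0.00101). Tnfsf10, encoding TRAIL, fell in CD4-CD8- cDC2 from 32.0 ± 8.18 to 8.14 ± 1.67 CPM (adjusted p 8.88e-06). Tnfsf11, encoding the RANK ligand, was at 0 in every WT CD4+ library and averaged 0.233 CPM in KO, so no fold is given, and it fell in CD4-CD8- cDC2 from 2.01 ± 1.18 to 0.224 ± 0.162 CPM (adjusted p 0.0177), a call lost without WT library 1 or KO library 1 or 2. The falls of Fasl, Tnfsf10 and Tnfsf11 in CD4-CD8- cDC2 stand beside the lower NK and T cell markers given above, and the part of those cells was not tested.

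Of 24 other TNF family receptors, 19 were tested: 7 rose and 4 fell in CD4+ cDC2, 6 rose and 4 fell in CD4-CD8- cDC2, and 2 rose and 7 fell in CD8+ cDC1 (medians 0.175, 0.21 and -0.58). The shares of all genes called were 35.1%, 25.9% and 15.7% in the same order. Cd40, the costimulatory receptor of antigen-presenting cells, fell in CD8+ cDC1 from 68.1 ± 12.9 to 42.8 ± 7.09 CPM (log2 -0.67 ± 0.17, adjusted p 0.0123), a call lost without WT or KO CD8+ library 2, and had log2 fold changes of 0.10 ± 0.17 and 0.27 ± 0.17 in CD4+ and CD4-CD8- cDC2 (adjusted p 0.684 and 0.270). Tnfrsf4, encoding OX40, fell in CD8+ cDC1 from 24.0 ± 2.07 to 5.50 ± 1.03 CPM (adjusted p 5.57e-07). Tnfrsf9, encoding 4-1BB and so the receptor of the Tnfsf9 product, fell from 8.70 ± 0.838 to 2.15 ± 1.18 CPM in CD8+ cDC1 (adjusted p 0.000343) and from 21.9 ± 9.64 to 8.04 ± 0.916 CPM in CD4-CD8- cDC2 (adjusted p 0.00114). Cd27 rose from 0.285 ± 0.125 to 1.64 ± 0.178 CPM in CD4+ cDC2 and fell from 13.2 ± 5.65 to 2.62 ± 1.07 CPM in CD4-CD8- cDC2, where T and NK cell markers fell as well. It also fell in CD8+ cDC1 (log2 -1.79 ± 0.46), a call kept in 11 of 17 alternatives. That call was lost without KO library 2, on every TPM scale and with the length offset. Ngfr rose in CD4+ cDC2 from 0.164 ± 0.125 to 2.99 ± 0.785 CPM and fell in CD8+ cDC1 from 6.82 ± 1.88 to 1.52 ± 0.417 CPM. Tnfrsf26 fell in CD4+ and CD4-CD8- cDC2 (log2 -2.65 ± 1.00 and -3.21 ± 1.02), calls kept in 6 and 9 of 17 alternatives and lost without WT library 3 or any KO library of either population.

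Downstream of these receptors, the genes of the alternative NF-kB pathway did not move as 1 block. Relb fell in all populations, from 495 ± 32.9 to 229 ± 46.0 CPM in CD4+ cDC2 (log2 -1.11 ± 0.14, adjusted p 7.16e-06), from 361 ± 30.7 to 194 ± 20.02 CPM in CD4-CD8- cDC2 (-0.90 ± 0.14, adjusted p 0.000133) and from 165 ± 6.93 to 71.9 ± 12.5 CPM in CD8+ cDC1 (-1.195 ± 0.14, adjusted p 1.503e-05). Its direction held in 17 of 17 alternatives per population, but no fall of Relb was called on counts of its leading transcript alone. Map3k14, encoding NIK, fell by 0.93 ± 0.11 in CD4+ cDC2, by 0.57 ± 0.11 in CD4-CD8- cDC2 and by 0.34 ± 0.11 in CD8+ cDC1 on the log2 scale (adjusted p 5.20e-06, 0.00110 and 0.0491). The last of these was kept in 9 of 17 alternatives and was lost without WT CD8+ library 1 or 3 or KO CD8+ library 1 or 2. Nfkb2, the partner of Relb, fell in CD8+ cDC1 (-0.36 ± 0.08, adjusted p 0.00666, not called on summed TPM) and had log2 fold changes of 0.04 ± 0.08 and 0.08 ± 0.08 in the cDC2 populations. Traf3, which limits NIK, was not called, with values from -0.08 to -0.20. Over the alternatives it ran from -0.38 to 0.56 in CD4+ cDC2, from -0.52 to 0.72 in CD4-CD8- cDC2 and from -1.315 to -0.12 in CD8+ cDC1, and it turned positive in both cDC2 populations on the leading transcript and in CD4+ cDC2 without WT library 1. A fall was called in 2, 2 and 4 of 17 alternatives.

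Over the whole lists, 2 of 23 receptor adaptors and regulators rose and 6 fell in CD4+ cDC2, 2 rose and 5 fell in CD4-CD8- cDC2, and 0 rose and 9 fell in CD8+ cDC1 (medians -0.08, -0.03 and -0.20). Beside the 35.1%, 25.9% and 15.7% of all genes called, the adaptor counts in CD4+ and CD4-CD8- cDC2 are close to the background. Of 13 NF-kB subunits and inhibitors, 2 rose and 6 fell, 2 rose and 2 fell, and 0 rose and 6 fell in the same order (medians 0.01, 0.03 and -0.36). Nfkbia, encoding the inhibitor IkB alpha, rose in CD4+ and CD4-CD8- cDC2 (log2 0.86 ± 0.13 and 0.74 ± 0.13), and Tnfaip3, encoding the inhibitor A20, rose in CD4+ cDC2 (0.82 ± 0.15) and fell in CD8+ cDC1 (-0.62 ± 0.15). Chuk, encoding the kinase IKK alpha, fell in both cDC2 populations (-0.95 ± 0.10 and -0.39 ± 0.10), as did Cyld, a deubiquitinase that limits NF-kB (-0.71 ± 0.08 and -0.55 ± 0.08). Traf1, an adaptor that NF-kB induces, fell in all populations (-0.71 ± 0.10, -0.46 ± 0.10 and -0.81 ± 0.10), the call in CD4-CD8- cDC2 being lost on TMM-scaled TPM and with the length offset. Cflar, encoding the caspase inhibitor c-FLIP, fell in CD8+ cDC1 (-0.67 ± 0.09), as did Bcl3 (-0.96 ± 0.21). The subunit Rel fell in CD8+ cDC1 (-0.87 ± 0.23, lost without WT or KO library 1) and in CD4+ cDC2 (-0.79 ± 0.23, lost without KO library 1). The fall of Tnfaip3 in CD8+ cDC1 was lost without KO library 1, and that of Cflar on the summed TPM scales. On counts of the leading transcript alone the calls of Cd40, Bcl3, Nfkb2 and Tnfaip3 in CD8+ cDC1, of Chuk and Cyld in CD4-CD8- cDC2 and of Tnfrsf9 in both were lost as well.

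Of 6 genes of sheddases of TNF family proteins and related factors, 5 rose and 1 fell in CD4+ cDC2. In CD4-CD8- cDC2, 4 rose and 1 fell, and in CD8+ cDC1, 0 rose and 2 fell (medians 0.42, 0.32 and -0.33). Of all genes, 35.1%, 25.9% and 15.7% were called in these populations. The number that rose was 2 in CD4+ and 1 in CD4-CD8- cDC2 on log2(TPM + 1). The gene that fell in the cDC2 populations was Adam10 itself. Adam17, which releases TNF and both TNF receptors, rose in CD4+ and CD4-CD8- cDC2 (log2 0.46 ± 0.08 and 0.30 ± 0.08, adjusted p 0.000308 and 0.0120) and was at -0.15 ± 0.08 in CD8+ cDC1 (adjusted p 0.247). Neither rise of Adam17 was called on log2(TPM + 1), and the rise in CD4-CD8- cDC2 was also lost without WT library 1 or 3. Rhbdf1, whose product iRhom1 assists ADAM17, rose from 0.718 ± 0.285 to 3.73 ± 1.56 CPM in CD4+ cDC2 and from 1.496 ± 0.424 to 5.64 ± 1.03 CPM in CD4-CD8- cDC2, and Rhbdf2 fell in CD8+ cDC1 (-0.67 ± 0.13). The rises of Adam17 and Rhbdf1 were not called on counts of the leading transcript alone. Furin rose in CD4+ and CD4-CD8- cDC2 (0.76 ± 0.11 and 0.34 ± 0.11), and so did Sppl2a (0.31 ± 0.10 and 0.42 ± 0.10). The smaller of each pair was called in 6 and 10 of 17 alternatives, and that of Furin turned to as low as -0.14 on log2(TPM + 1) and log2(TPM + 0.1).

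**Figure D5:**
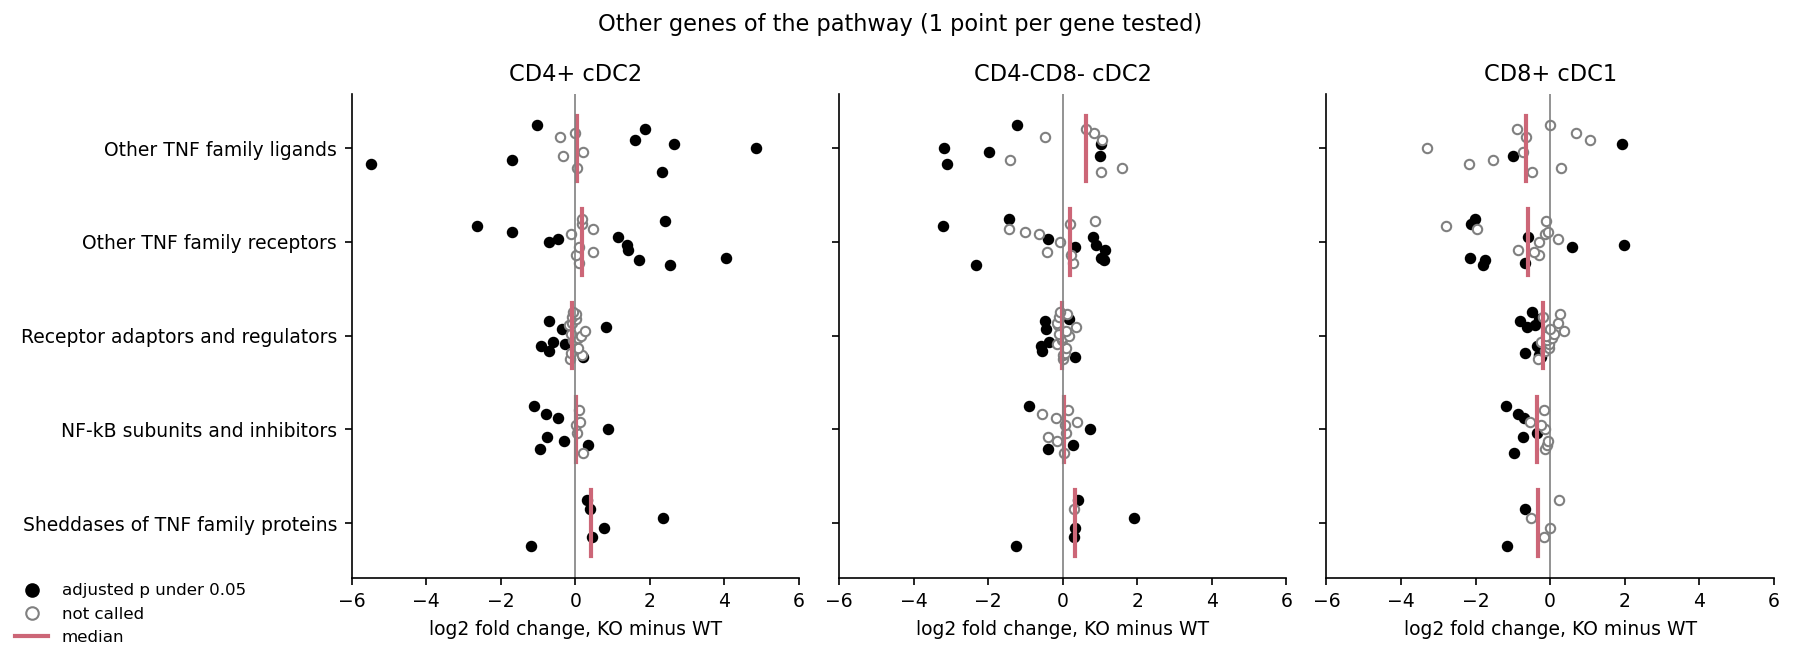
Log2 fold change, KO minus WT, of every tested gene in 5 lists of the pathway that leave out the 7 genes, by population; filled points passed an adjusted p under 0.05, open points did not, and red bars are list medians. Ligands and receptors spread to both sides in CD4+ cDC2, and in CD8+ cDC1 the medians of the 5 lists lie between -0.65 and -0.20.

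The genes whose log2 CPM followed each member most closely over the 18 libraries are given as a description, since all libraries share the same 6 groups. Pearson's r was 0.98 for Ltb with Chst10, Aebp2 and Vopp1. It was 0.99 for Tnfrsf1b with Dnmt3a, Cadm3 and Ehf, and between 0.96 and 0.97 for Tnfsf9 with Upb1, F13a1 and Spn. It was between 0.91 and 0.93 for Ltbr with Mfsd1, Ntpcr and Ctdnep1 and for Tnfrsf1a with Gm15280, Dusp2 and Olfr1033, and between 0.90 and 0.93 for Tnfsf13b with Map3k6, Ryr1 and Ext1. For Tnfrsf11a it was lowest, between 0.80 and 0.82 with Adam23, Tmem29 and Fbxl17.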

How the data were processed

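The 18 libraries come from sorted cDC. The deposited tables hold estimated counts (117135 transcripts) and TPM (84086 transcripts) made by the authors; the submitters' processing notes list Salmon 0.14.1, FastQC 0.11.8 and the build GRCm38. Poly(A) selection and single-end reads are given per the labels' protocols. Estimated counts and TPM were summed per gene by the deposited gene names. The tables name no gene for 152 transcripts: GENCODE M21 named 37, and 115 were omitted (no more than 0.16% of any library's counts). Sums were rounded, filtered with filterByExpr and scaled by TMM (edgeR 4.0.16, R 4.3.3).

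A model with a mean for each group used all 18 libraries and left 12 residual degrees of freedom. It was tested with edgeR's quasi-likelihood F test, two-sided, with Benjamini-Hochberg adjusted p over 13381 genes, for 12 comparisons. The standard error is the size of the log2 fold change divided by the square root of F. Alternatives were DESeq2 1.42.0, its size factors in edgeR, no filter, limma 3.58.1 on log2(TPM + 1), log2(TPM + 0.1) and TMM-scaled TPM, a length offset, only the groups compared, the replicate number as a block, and each library left out. Fits on the leading transcript were added after seeing the data. The procedure was tested on simulated counts. The members and gene lists were chosen with earlier results of these data known. By rule the text names the 7 members, up to 3 called genes with the largest change per pathway list and population, Lta, Tnf, Cd40, Relb, Nfkb2, Map3k14, Traf3, Adam17, Adam10 and defining markers, and the 3 genes most correlated with each member. Lyz2, Treml4 and Csf1r were named after their values were seen.

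Chi-square per gene between libraries of a group was 9.74 to 33.4 over 18 pairs, so none was a copy of another. Deviations from group means were correlated over the 5000 most abundant genes. Same-numbered libraries correlated at 0.20 to 0.54 in 9 of 9 WT pairs, at 0.03 to 0.54 in KO (8 of 9 above 0.1) and at -0.31 to 0.36 across genotypes (11 of 27 above 0.1). By the rule of every pair above 0.1, the numbers pair WT libraries across populations, and KO libraries missed the rule by the pair at 0.03. In KO the median was 0.40 for same-numbered and -0.23 for other-numbered libraries, beside 0.36 and -0.17 in WT. KO libraries may therefore be paired too, and the model with a mean for each group leaves any pairing out.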

Additional observations from a re-analysis of the deposited data

Results flagged for a closer look

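The knockout effect differed between populations for 4 of the 7 genes, by an interaction contrast in edgeR's quasi-likelihood test with adjusted p over all genes. Of all genes tested, 22.1% were called for CD4+ cDC2 minus CD8+ cDC1 and 13.2% for CD4-CD8- cDC2 minus CD8+ cDC1. Tnfsf9 differed by 3.12 (CD4+ cDC2 minus CD8+ cDC1, adjusted p 6.14e-06) and by 2.35 (CD4-CD8- cDC2 minus CD8+ cDC1, adjusted p 0.000189), rising in every KO library of cDC2 and lying lower in every KO library of cDC1. Tnfrsf1b differed by 1.54 (adjusted p 3.44e-05) and 1.26 (adjusted p 0.000491). Ltbr differed by 0.38 (adjusted p 0.0351) and 0.53 (adjusted p 0.00888). The second values of Tnfrsf1b and Ltbr were not called on log2(TPM + 1), at 0.86 and 0.11 (adjusted p 0.197 and 0.892). The call of the first value was kept in 24 of 24 alternatives for Tnfrsf1b and in 9 of 24 for Ltbr. Tnfrsf1a differed by 0.50 for CD4-CD8- cDC2 minus CD8+ cDC1 (adjusted p 0.0496), a call kept in 5 of 24 alternatives. All differences are on the log2 scale, and each contrast uses the 3 WT and 3 KO libraries of both populations.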

How the results depend on the processing

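Of the alternatives, the rise of Tnfsf9 in both cDC2 populations, the falls of Ltb in CD4-CD8- cDC2 and CD8+ cDC1, the fall of Tnfrsf1b in CD8+ cDC1 and the difference in the Tnfsf9 effect between cDC2 and cDC1 passed in every one run. In what follows CD4- stands for CD4-CD8- cDC2, and effect for the knockout effect. Only the larger changes of a count are listed per alternative, so a count left out may still differ from that given above. On log2(TPM + 1) the number of the 7 genes called was 3 (KO minus WT in CD4+), 2 (KO minus WT in CD4-), 1 (CD4+ minus CD4- in WT), 3 (CD4+ minus CD8+ in KO), 1 (CD4+ minus CD4- in KO), 1 (effect CD4- minus CD8+). On log2(TPM + 0.1) the number of the 7 genes called was 3 (KO minus WT in CD4+), 2 (KO minus WT in CD4-), 1 (CD4+ minus CD4- in WT), 3 (CD4+ minus CD8+ in KO), 0 (CD4+ minus CD4- in KO), 1 (effect CD4- minus CD8+). On TMM-scaled TPM the number of the 7 genes called was 3 (KO minus WT in CD4+), 2 (KO minus WT in CD4-), 3 (KO minus WT in CD8+), 3 (CD4+ minus CD8+ in KO), 1 (CD4+ minus CD4- in KO), 1 (effect CD4- minus CD8+). With the length offset the number of the 7 genes called was 3 (KO minus WT in CD4+), 2 (KO minus WT in CD4-), 3 (KO minus WT in CD8+), 1 (CD4+ minus CD4- in WT), 3 (CD4+ minus CD8+ in KO), 1 (CD4+ minus CD4- in KO), 1 (effect CD4- minus CD8+). On the TPM of the leading transcript the number of the 7 genes called was 2 (KO minus WT in CD4+), 5 (CD4- minus CD8+ in WT), 1 (CD4+ minus CD4- in WT), 1 (CD4+ minus CD4- in KO), 2 (effect CD4- minus CD8+). On counts of the leading transcript the number of the 7 genes called was 3 (KO minus WT in CD4+), 3 (KO minus WT in CD8+), 1 (CD4+ minus CD4- in WT), 1 (CD4+ minus CD4- in KO), 2 (effect CD4- minus CD8+). With the replicate block within genotype the number of the 7 genes called was 1 (effect CD4+ minus CD4-).

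Signs turned for differences that were not called, the exception being Ltbr in CD4- (0.44, called). Turned values that passed were Tnfrsf1a (KO minus WT in CD4-, adjusted p 0.0493) and Ltbr (CD4- minus CD8+ in WT, adjusted p 0.0048), both on the TPM of the leading transcript. With DESeq2 size factors the sign turned for Tnfrsf1a (KO minus WT in CD4- -0.014). With DESeq2 the sign turned for Tnfrsf1a (KO minus WT in CD4- -0.014). With no filter the sign turned for Tnfrsf1a (KO minus WT in CD4- -0.029). On log2(TPM + 1) the sign turned for Tnfrsf1b (KO minus WT in CD4- -0.29), Tnfrsf1a (KO minus WT in CD4- -0.00028), Ltbr (CD4+ minus CD8+ in WT -0.058, CD4- minus CD8+ in WT 0.40, CD4+ minus CD4- in WT -0.46, effect CD4+ minus CD4- 0.22), Tnfrsf11a (CD4- minus CD8+ in WT 0.0055), Tnfsf13b (effect CD4+ minus CD8+ 0.28), Ltb (effect CD4- minus CD8+ -0.066). On log2(TPM + 0.1) the sign turned for Tnfrsf1b (KO minus WT in CD4- -0.30), Tnfrsf1a (KO minus WT in CD4- -0.00022), Ltbr (CD4+ minus CD8+ in WT -0.059, CD4- minus CD8+ in WT 0.40, CD4+ minus CD4- in WT -0.46, effect CD4+ minus CD4- 0.22), Tnfsf13b (effect CD4+ minus CD8+ 0.37). On TMM-scaled TPM the sign turned for Tnfrsf1b (KO minus WT in CD4- -0.022), Ltbr (KO minus WT in CD8+ 0.19, CD4+ minus CD8+ in WT -0.064, CD4- minus CD8+ in WT 0.21, CD4+ minus CD4- in WT -0.27, effect CD4+ minus CD4- 0.10), Tnfsf13b (effect CD4+ minus CD8+ 0.27). With the length offset the sign turned for Tnfrsf1b (KO minus WT in CD4- -0.018), Ltbr (KO minus WT in CD8+ 0.19, CD4+ minus CD8+ in WT -0.029, CD4- minus CD8+ in WT 0.27, CD4+ minus CD4- in WT -0.30, effect CD4+ minus CD4- 0.13), Tnfsf13b (effect CD4+ minus CD8+ 0.37). With only the groups compared the sign turned for Tnfrsf1a (KO minus WT in CD4- -0.016). On the TPM of the leading transcript the sign turned for Tnfrsf1b (KO minus WT in CD4- -0.064, CD4+ minus CD4- in WT -0.0017), Ltbr (KO minus WT in CD4- -0.012, CD4- minus CD8+ in WT 0.24, CD4+ minus CD4- in WT -0.076, effect CD4+ minus CD4- 0.076), Tnfrsf1a (KO minus WT in CD4- -0.35, effect CD4+ minus CD4- 0.068), Tnfsf13b (CD4+ minus CD8+ in WT -0.061, CD4- minus CD8+ in KO -0.081, effect CD4+ minus CD8+ 0.32), Tnfrsf11a (CD4- minus CD8+ in WT 0.011). On counts of the leading transcript the sign turned for Tnfrsf1a (KO minus WT in CD4- -0.092), Tnfsf13b (CD4+ minus CD8+ in WT -0.45, CD4- minus CD8+ in KO -0.34, effect CD4+ minus CD8+ 1.04), Ltbr (CD4- minus CD8+ in WT 0.026, CD4+ minus CD4- in KO 0.10). The cause of these changes was not tested.

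With 1 library left out, the count called for KO minus WT was 3 to 4 in CD4+, 3 to 4 in CD4- and 4 to 5 in CD8+. In WT it was 2 to 3 (CD4+ minus CD8+) and 1 to 2 (CD4+ minus CD4-). In KO it was 5 to 6 (CD4- minus CD8+) and 0 to 2 (CD4+ minus CD4-). For the effects it was 2 to 4 (CD4+ minus CD8+) and 3 to 4 (CD4- minus CD8+). Leaving out 1 library did not change the count of the other comparisons. It turned the sign of Tnfrsf1a (CD4+ minus CD8+ in WT) -0.0022 to 0.19, Tnfsf9 (CD4+ minus CD8+ in WT) -0.33 to 0.013, Tnfrsf1a (CD4+ minus CD4- in WT) -0.13 to 0.043, Tnfsf13b (effect CD4+ minus CD8+) -0.40 to 0.13, Tnfrsf11a (effect CD4+ minus CD4-) -0.35 to 0.070, Tnfrsf11a (CD4+ minus CD8+ in KO) -0.016 to 0.16, Ltbr (CD4+ minus CD4- in KO) -0.053 to 0.052, Tnfsf13b (CD4+ minus CD4- in KO) -0.038 to 0.35, Tnfrsf1a (KO minus WT in CD4-) -0.085 to 0.076, Tnfrsf11a (CD4- minus CD8+ in WT) -0.37 to 0.052, Ltbr (CD4- minus CD8+ in WT) -0.078 to 0.022, Tnfsf13b (CD4- minus CD8+ in KO) -0.083 to 0.38, Tnfrsf11a (KO minus WT in CD8+) -0.11 to 0.064.

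Across genotypes the replicate numbers share only a number. With the replicate block by number, the difference in the Tnfrsf1a effect (CD4-CD8- minus CD8+) was 0.50 and lost its call (adjusted p 0.0562). With the replicate block within genotype, the Tnfsf9 effect of CD4+ minus CD4-CD8- cDC2 was 0.78 without and 0.76 with the block (adjusted p 0.0426). In that fit Ltb (CD4+ minus CD4- in WT, 0.61), Tnfsf13b (CD4- minus CD8+ in WT, 0.82), Tnfsf9 (CD4+ minus CD4- in KO, -0.50), Tnfrsf11a (CD4- minus CD8+ in KO, -0.42) and the Tnfrsf1a effect (CD4+ minus CD8+, 0.39) also gained a call, and the block within genotype lost none.

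Unscaled TPM moved the median of all genes (KO minus WT, CD4+, CD4- and CD8+) to -0.09, -0.18 and -0.13 with a pseudocount of 1, so changes on that scale are relative to these shifts. On log2(TPM + 1) in CD4-CD8- cDC2, the adaptors numbered 0 higher and 10 lower (2 and 5 on counts) and the NF-kB genes 1 higher and 7 lower (2 and 2 on counts). Depth limits Tnfsf13b most, at 0.573 to 5.47 CPM. With 3 libraries a group, calls of adjusted p near 0.05 often changed when 1 library was left out.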

Other observations

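Relb of the pathway is also a gene of dendritic cell maturation, and it belongs to the list of 13 maturation genes counted here. In CD8+ cDC1, 1 rose and 8 fell with ADAM10 loss, with a median log2 fold change of -1.20. There 15.7% of all genes were called (7.01% higher and 8.68% lower). In CD4+ cDC2, 4 rose and 6 fell (median -0.36), and in CD4-CD8- cDC2, 3 rose and 5 fell (median -0.28). Of all genes, 35.1% and 25.9% were called in these 2 populations. Of 10 cDC2 markers, 5 rose and 2 fell in CD4+ cDC2 and 2 rose and 6 fell in CD8+ cDC1, beside the same shares of all genes. The sum of these markers was 1469 to 1757 CPM in WT against 3474 to 3794 CPM in KO CD4-CD8- cDC2. It was 2165 to 2307 and 3987 to 4617 CPM in CD4+ cDC2, and 357 to 475 and 301 to 404 CPM in CD8+ cDC1. The fall of Relb is thus part of the maturation counts. Whether the changes of the other listed genes bear on Relb, Tnfrsf4, Tnfrsf9 or Cd40 was not tested.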
